A study of Mus musculus with 12 samples.

Results

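Long intergenic noncoding RNAs (lincRNAs) are transcripts with no known protein product that are read from the DNA between protein-coding genes. Many are spliced like messenger RNA, are present at few copies per cell and are found in few cell types, and some respond within hours when macrophages meet bacterial products. Lipopolysaccharide (LPS), a component of the outer membrane of Gram-negative bacteria, is sensed by macrophages through the receptor TLR4, which starts a transcription programme of cytokines and other inflammatory genes.

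The probes described here are all those of a mouse long noncoding RNA and messenger RNA microarray whose name contains "linc". They numbered 1836 of 60915 probes that are not controls. The name alone decided which probes belong, though the set was chosen with earlier results of these data known. Their names belong to 3 series, with 1104 probes named humanlincRNA, 649 named mouselincRNA and 83 named MM9LINCRNAEXON. Each name goes on with a number, a + or − sign and the ending _P1. The sign was read here as a strand, 921 probes carrying + and 915 carrying −. The deposited data hold neither a sequence, a position nor a gene for these probes, and do not define what "human" or the sign stands for, so the probes are given by name only.

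The arrays measured RNA from RAW264.7 cells, a macrophage-like cell line derived from a mouse tumour, in 4 groups of 3 arrays each. DMSO cells received the solvent for 24 h. LPS cells received 100 ng/ml LPS for 6 h, and their labels name nothing given before it. AdipoAI cells received AdipoAI, a small-molecule agonist of the adiponectin receptors, for 24 h. AdipoAI+LPS cells were kept in AdipoAI for 24 h before LPS was given, at 100 ng/ml for 6 h. By these labels the groups compared, such as LPS and DMSO, may also differ in solvent and in time in culture, which was not tested. The labels do not say whether the 3 arrays of a group came from separate cultures, so the tests measure the spread between arrays, which may be technical, and 3 arrays a group limit their precision. The identity of the cells could not be checked against macrophage markers, because the data used here pair no probe with such a gene.

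The file headers place the arrays in 2 scans. The first held DMSO 1 to 3, LPS 1 to 3 and AdipoAI 1 and 2, and the second held AdipoAI 3 and AdipoAI+LPS 1 to 3. AdipoAI+LPS and LPS therefore lay wholly in different scans, and in that comparison scan and treatment cannot be told apart except through the AdipoAI group, which spans both. DMSO 1, LPS 1 and LPS 3 also stood apart at the bottom of the scale. On them 53.5% to 60.7% of the lincRNA-named probes lay within 0.01 log2 of the array's lowest value, against 0% to 3.21% on the other 9 arrays. Values this low have no order among themselves. The part of this in the results was not tested beyond leaving out each array in turn.

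Most lincRNA-named probes were not marked as well above background in these cells. A probe counted as detected on an array when the scanner software marked it as well above background. Probes without this mark are called at background here, although some read above the bottom of the scale. On average 18.9% ± 2.7 of the 1836 probes were detected on a DMSO array, 19.2% ± 2.3 on an LPS array, 16.7% ± 0.63 on an AdipoAI array and 19.8% ± 1.5 on an AdipoAI+LPS array (SD, n = 3 each). The other 59079 probes were detected far more often, at 53.2% ± 2.5, 51.9% ± 2.4, 50.5% ± 0.42 and 52.3% ± 1.4. Every one of the 12 arrays showed this gap, with 295 to 399 lincRNA-named probes detected per array. Across all arrays 1202 of the 1836 (65.5%) were detected on none and 216 (11.8%) on all 12, where the other probes reached 35.4% and 42.7%. A further 230 were detected on 1 or 2 arrays and 188 on 3 to 11.

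The MM9LINCRNAEXON probes were detected more often than the other 2 series in each group mean, at 28.9% ± 7.2 in DMSO against 17.8% ± 2.8 for humanlincRNA and 19.4% ± 2.1 for mouselincRNA (SD, n = 3). With 83 probes, this series ranged from 21.7% to 36.1% over the 3 DMSO arrays alone. Probes of one array share its RNA, so the difference between series is a description and was not tested.

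The share of lincRNA-named probes detected was compared between groups over arrays. LPS differed from DMSO by 0.29 percentage points, AdipoAI from DMSO by -2.23, AdipoAI+LPS from LPS by 0.599 and AdipoAI+LPS from AdipoAI by 3.12. An exact two-sided permutation test over the 3 against 3 arrays gave p = 0.9, 0.4, 0.8 and 0.1, or 0.9, 0.8, 0.9 and 0.4 after Benjamini-Hochberg adjustment over these 4 comparisons. The smallest p this design allows is 0.1, so none could pass 0.05. AdipoAI (16.1% to 17.3%) and AdipoAI+LPS (18.5% to 21.4%) were the only pair whose arrays did not overlap.

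**Figure D1:**
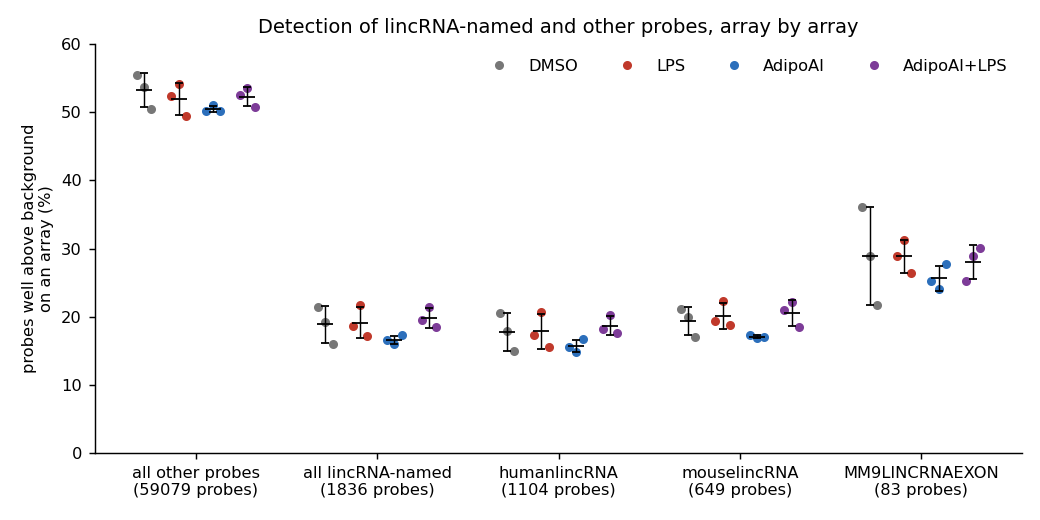
Share of probes marked well above background on each array (vertical axis, percent), for all other probes, all lincRNA-named probes and the 3 name series. Points are arrays coloured by group, black marks are means with SD of 3 arrays. The lincRNA-named probes lie between 16.1% and 21.7% on every array and the other probes between 49.4% and 55.4%.

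Probes that went from no array to all 3 of a group were few. Between DMSO and LPS, 9 lincRNA-named probes were gained (0.49%, against 0.658% of all probes) and 6 were lost (0.327%, against 1.06%). Between AdipoAI and AdipoAI+LPS, 16 were gained (0.871%, against 0.985% of all probes) and 0 were lost, where 0.478% of all probes were. The 2 comparisons share no array. Of the 9 and the 16 gained, humanlincRNA1590+_P1, humanlincRNA1841+_P1 and humanlincRNA1857+_P1 were in both lists. AdipoAI against DMSO had 1 gained probe (0.138% of all probes were) and 7 lost (0.645% of all probes), and AdipoAI+LPS against LPS had 4 gained (0.381% of all probes) and 3 lost (0.346%).

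The signal of the lincRNA-named probes sat low in the range of the array. Signals are given as log2 of the background-subtracted, quantile-normalized intensity. After 9 probes flagged as outliers were left out, the mean over the 12 arrays had a median of 1.34 among 1827 lincRNA-named probes (quartiles 1.13 and 2.51), against 3.55 (quartiles 1.38 and 6.60) among 58867 other probes. The gap between the 2 medians, taken array by array, averaged -2.49 in DMSO, -2.50 in LPS and -2.47 both in AdipoAI and in AdipoAI+LPS. Among probes detected on at least 3 arrays the medians were 4.38 for 400 lincRNA-named and 6.11 for 33292 other probes, and 81 of the 400 lay above the latter.

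**Figure D2:**
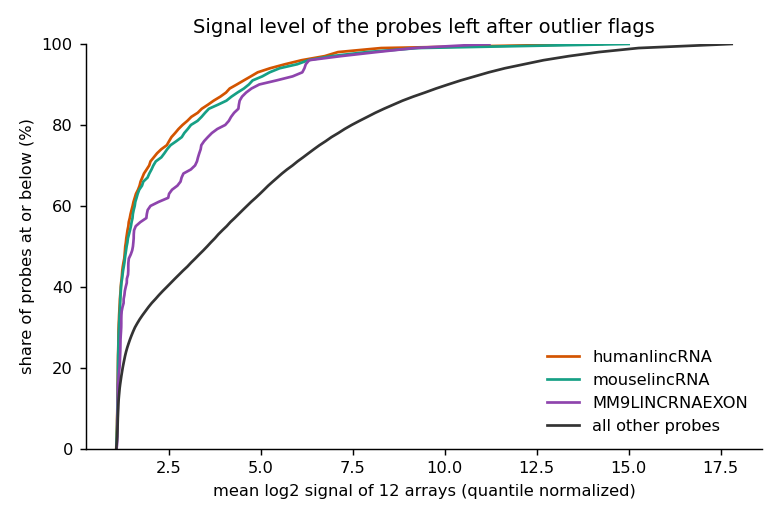
Cumulative share of probes (vertical axis, percent) by mean log2 signal of 12 arrays (horizontal axis) for the 3 lincRNA name series and all other probes. The lincRNA curves rise steeply near the bottom of the scale, with medians of 1.32, 1.36 and 1.53 against 3.55.

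A small number of lincRNA-named probes were bright. Of the 1827, 28 had a mean log2 signal over 8, 11 over 10 and 7 over 12. Those 7 were mouselincRNA0161-_P1, humanlincRNA2397+_P1, humanlincRNA2438+_P1, mouselincRNA1606-_P1, humanlincRNA1739+_P1, mouselincRNA0706+_P1 and humanlincRNA2330+_P1, named after their values were seen. A probe's brightness depends on its sequence as well as on its RNA, so these levels set no order between transcripts. mouselincRNA0161-_P1 read 15.09, 15.09 and 15.16 on the DMSO arrays, 14.95, 14.94 and 14.87 with LPS, 15.02, 15.07 and 14.99 with AdipoAI, and 14.68, 15.05 and 15.10 with both. None of the 4 comparisons of it passed the test described below. mouselincRNA0706+_P1 did move, from 11.32, 11.50 and 11.65 in DMSO to 13.04, 14.36 and 13.94 with LPS, and its AdipoAI arrays at 12.55, 12.37 and 12.62 lay between those groups without overlap. Its log2 fold change was 2.29 (SE 0.32, adjusted p = 0.000181 in the limma fit) for LPS over DMSO, and 1.36 (SE 0.32, adjusted p = 0.00715) for AdipoAI+LPS over AdipoAI. humanlincRNA2438+_P1 was lower with LPS (-0.39, SE 0.11, adjusted p = 0.0192) and with AdipoAI (-0.43, SE 0.11, adjusted p = 0.0318) than in DMSO, and the other 5 were called in none of the 4 comparisons.

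The + and − probes of one number behaved as separate measurements. In all, 876 numbers had a probe of each sign. In 125 of these pairs 1 probe was detected on all 12 arrays and its partner on none, and in 19 both were detected on all 12. Both probes reached the filter of 3 arrays in 46 pairs, 1 probe alone in 287 and neither in 543. In those 46 pairs the log2 signals of the 2 probes over the 12 arrays had a median Pearson r of 0.05, close to the 0.08 over all 79800 pairs of the 400 probes. The 12 arrays are not independent of treatment, so these correlations are descriptions. The highest, 0.97, was between humanlincRNA0388+_P1 and humanlincRNA0388-_P1, the latter detected on 3 arrays. The files do not say whether neighbouring numbers are neighbouring loci, and 41 pairs of tested probes with numbers 1 apart had a median r of 0.01.

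**Figure D3:**
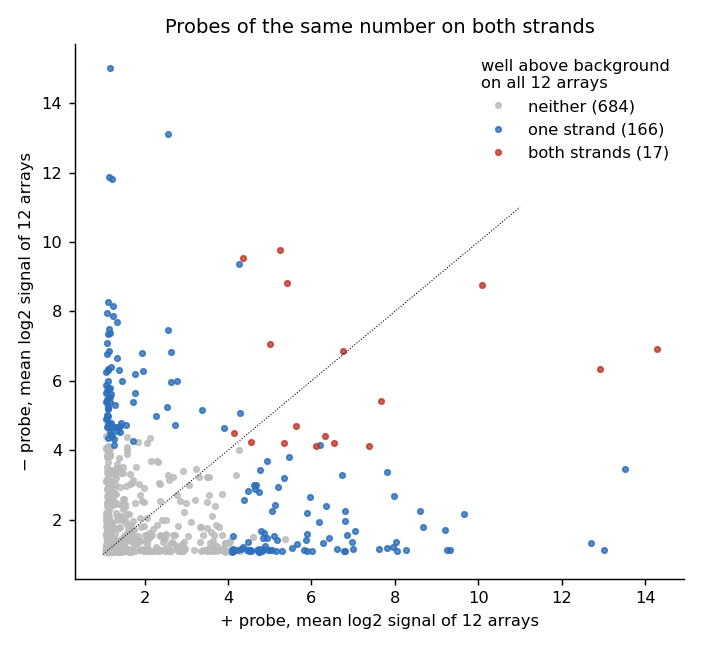
Mean log2 signal over 12 arrays of the − probe (vertical axis) and the + probe (horizontal axis) for the 867 numbers whose probes both remained after outlier flags. Colour marks detection on all 12 arrays, by both probes in 17 pairs, 1 probe in 166 and neither in 684, and most of the 166 lie along an axis with the partner near the bottom of the scale. The dotted line marks equal signals, and distance from it does not measure relative amounts.

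Changes were tested with limma on all 33692 probes detected on at least 3 arrays, of which 400 were lincRNA-named. The 400 are thus 21.8% of the 1836 lincRNA-named probes, while 56.4% of the other probes entered. A probe was called where its p-value, adjusted by the Benjamini-Hochberg method over all 33692, was under 0.05. The median standard error was 0.276 log2 units for the lincRNA-named probes and 0.187 over all probes. In bulk RNA, fewer cells with a transcript and less of it per cell cannot be told apart.

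LPS raised more lincRNA-named probes than it lowered. In LPS against DMSO, 95 of the 400 were called (23.8%), where 38.5% of all probes were. Of the 95, 73 were higher and 22 lower. The higher calls made up 18.2% of the lincRNA-named probes and 16.2% of all probes, and the lower calls 5.5% and 22.3%. The median log2 fold change was 0.23 among the 400, of which 278 were positive, and -0.01 over all probes. The groups did not overlap in 92 of the 95, and 52 changed by more than 1 log2 unit. Called or not, 36.8% of the 400 had groups without overlap, where 53.4% of all probes did. With background correction by normexp 80 were called, 59 higher and 21 lower, where 38.5% of all probes were called. The median over the 400 was then 0.05.

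The tilt towards increases was present at every signal level. Split by the quartiles of the other tested probes, lincRNA-named probes below a mean log2 signal of 4.36 gave 28 higher and 7 lower calls of 198, those from 4.36 to 6.11 gave 26 and 8 of 121, those from 6.11 to 8.82 gave 14 and 5 of 63, and those above gave 5 and 2 of 18. In the same ranges the other probes gave 867 higher and 1224 lower, 1292 and 1661, 1704 and 2232, and 1529 and 2365, of 8323 in each. Higher calls made up 14.1%, 21.5%, 22.2% and 27.8% of the lincRNA-named probes and 10.4%, 15.5%, 20.5% and 18.4% of the others. Lower calls made up 3.54%, 6.61%, 7.94% and 11.1%, against 14.7%, 20%, 26.8% and 28.4%. In every range the wider gap was in the lower calls. By series, 60 of 231 humanlincRNA probes were called (45 higher), 31 of 142 mouselincRNA probes (24 higher) and 4 of 27 MM9LINCRNAEXON probes (4 higher).

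The largest increase belonged to MM9LINCRNAEXON10569-_P1, detected on all 12 arrays. Its log2 signal was 7.72, 8.18 and 8.72 in DMSO, 12.37, 13.97 and 13.72 in LPS, 10.30, 10.04 and 10.50 in AdipoAI, and 13.59, 13.12 and 12.39 in AdipoAI+LPS. All LPS-treated arrays stood above all others, and the AdipoAI arrays stood above the DMSO arrays. The log2 fold change of LPS over DMSO was 5.15 (SE 0.43, adjusted p = 4.23e-06), or 35.4-fold. The rise from AdipoAI to AdipoAI+LPS was 2.76 (SE 0.43, adjusted p = 0.000577), and the difference between these 2 rises, -2.39 (SE 0.61), had an adjusted p of 0.0688.

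mouselincRNA1040+_P1 had the second largest increase and, of the 8 largest, the largest standard error. It read 4.49, 4.79 and 4.92 in DMSO, 7.73, 10.10 and 10.22 in LPS, 6.02, 6.36 and 7.12 in AdipoAI, and 11.56, 10.57 and 8.26 in AdipoAI+LPS. The LPS arrays did not overlap with DMSO, nor the AdipoAI+LPS arrays with AdipoAI, although LPS 1 and AdipoAI+LPS 3 lay well below the other arrays of their groups. The log2 fold change was 4.62 (SE 0.82, adjusted p = 0.00101) for LPS over DMSO. Its partner on the other strand, mouselincRNA1040-_P1, was detected on all 12 arrays, read 4.49 to 5.59 in DMSO and 4.98 to 6.04 in LPS, and was not called (log2 fold change 0.51, SE 0.32, adjusted p = 0.243).

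humanlincRNA0324-_P1 showed the smallest error among the 8 largest increases. Its values were 9.37, 9.84 and 10.00 in DMSO, 13.00, 13.32 and 13.35 in LPS, 11.05, 11 and 11.06 in AdipoAI, and 13.45, 13.31 and 13.05 in AdipoAI+LPS. LPS and AdipoAI+LPS overlapped, and each was separate from both groups without LPS. The rise over DMSO was 3.49 (SE 0.18, adjusted p = 8.12e-08), 11.2-fold. The + probe of the same number read 1.06 to 2.21 on the DMSO and LPS arrays and was detected on none of the 12.

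Of the next increases, those of humanlincRNA1094-_P1 and humanlincRNA0750-_P1 were in probes detected on all 12 arrays. humanlincRNA1094-_P1 rose from 6.11, 5.97 and 6.69 in DMSO to 9.74, 10.04 and 10.63 in LPS, a log2 fold change of 3.88 (SE 0.53, adjusted p = 0.000153). humanlincRNA0750-_P1 rose from 4.31, 3.84 and 4.51 to 7.33, 7.28 and 7.41, a log2 fold change of 3.12 (SE 0.22, adjusted p = 1.06e-06). humanlincRNA1590+_P1 was not well above background on any DMSO array (2.63, 2.28 and 2.86) and read 6.20, 7.03 and 6.46 in LPS. In all 3 the LPS arrays lay above the DMSO arrays by more than the range within either group. For humanlincRNA1590+_P1 only a bound is measured, and the LPS mean was at least 9.83-fold above DMSO (adjusted p = 7.17e-07). Such bounds set the mean of the brighter group against, on each array of the other, the lowest signal of any probe well above background or the probe's own signal, whichever was higher. humanlincRNA1590+_P1 reached the filter of 3 arrays only with arrays of groups given LPS, so its test is not independent of the filter.

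humanlincRNA2002+_P1 and humanlincRNA1857+_P1 were likewise at background in DMSO. humanlincRNA2002+_P1 read 5.61, 7.66 and 7.27 in LPS, at least 12-fold above DMSO (adjusted p = 0.00131), and humanlincRNA1857+_P1 read 4.68, 4.55 and 3.99, at least 2.2-fold above (adjusted p = 8.55e-06). The DMSO arrays lay at 2.59 to 3.13 and at 1.09 to 2.10. Both probes likewise reached the filter only with arrays of groups given LPS, so their tests are not independent of it. In 23 of the 95 called probes the lower group had no array well above background.

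The strand partners of most of these risers were at background. humanlincRNA1590-_P1, humanlincRNA0750+_P1 and humanlincRNA1857-_P1 were detected on none of the 12 arrays, with means over the arrays of 1.1, 1.09 and 1.23, and humanlincRNA2002-_P1 on 1. humanlincRNA1094+_P1, detected on all 12, read 5.20 to 5.38 in DMSO and 5.56 to 5.70 in LPS. Across the 46 pairs with both strands tested, both were called in LPS against DMSO in 3, each time both higher, and 1 alone in 22. The 3 were humanlincRNA0388, humanlincRNA2473 and mouselincRNA0714. humanlincRNA0388-_P1 was well above background on no DMSO or LPS array, so its call compares groups at background.

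Decreases with LPS were fewer. mouselincRNA1244+_P1 fell from 6.07, 6.32 and 6.11 in DMSO to 4.31, 4.35 and 4.41 in LPS, with 6.22, 6.12 and 5.99 in AdipoAI and 4.89, 4.73 and 4.73 in AdipoAI+LPS. Both groups given LPS were separate from both groups without it. Its log2 fold change was -1.81 (SE 0.11, adjusted p = 3.73e-07). mouselincRNA1559-_P1 fell from 6.51, 6.52 and 6.52 to 4.59, 5.01 and 4.96 (log2 fold change -1.67, SE 0.16, adjusted p = 9.24e-06). humanlincRNA1945-_P1 fell from 9.75, 9.49 and 9.34 to 7.94, 8.61 and 8.07 (log2 fold change -1.32, SE 0.43, adjusted p = 0.0327).

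The largest decrease, in humanlincRNA1543-_P1, ended below the detection limit. It read 5.3, 5.48 and 5.15 in DMSO and 1.65, 2.33 and 1.11 in LPS, where no array was well above background, so that LPS was at least 3.73-fold lower (adjusted p = 0.00776). One AdipoAI+LPS array read 5.3 and the other two 1.13 and 1.30, and that comparison with AdipoAI was not called (adjusted p = 0.224). humanlincRNA0170+_P1 and humanlincRNA1025-_P1 were also lost, at least 1.27-fold lower (adjusted p = 0.000978) and at least 1.77-fold lower (adjusted p = 0.00242). LPS arrays of each lay below all DMSO arrays. Both passed the filter of 3 arrays through the DMSO arrays alone, so their tests against DMSO are not independent of the filter. humanlincRNA1543-_P1 reached the filter only with arrays of groups not given LPS, and the same limit holds for its test. mouselincRNA0664-_P1 (-1.43, SE 0.52, adjusted p = 0.0493) and humanlincRNA0566+_P1 (-1.36, SE 0.39, adjusted p = 0.0175) had log2 fold changes of similar size. Leaving out single arrays lost the calls of mouselincRNA0664-_P1 in 9 of 12 cases, humanlincRNA1945-_P1 in 5 and humanlincRNA0566+_P1 in 3, whereas the other 13 of these 16 probes kept theirs in all 12. The adjusted p of mouselincRNA0664-_P1 was 0.0629 with scan as a block.

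**Figure D4:**
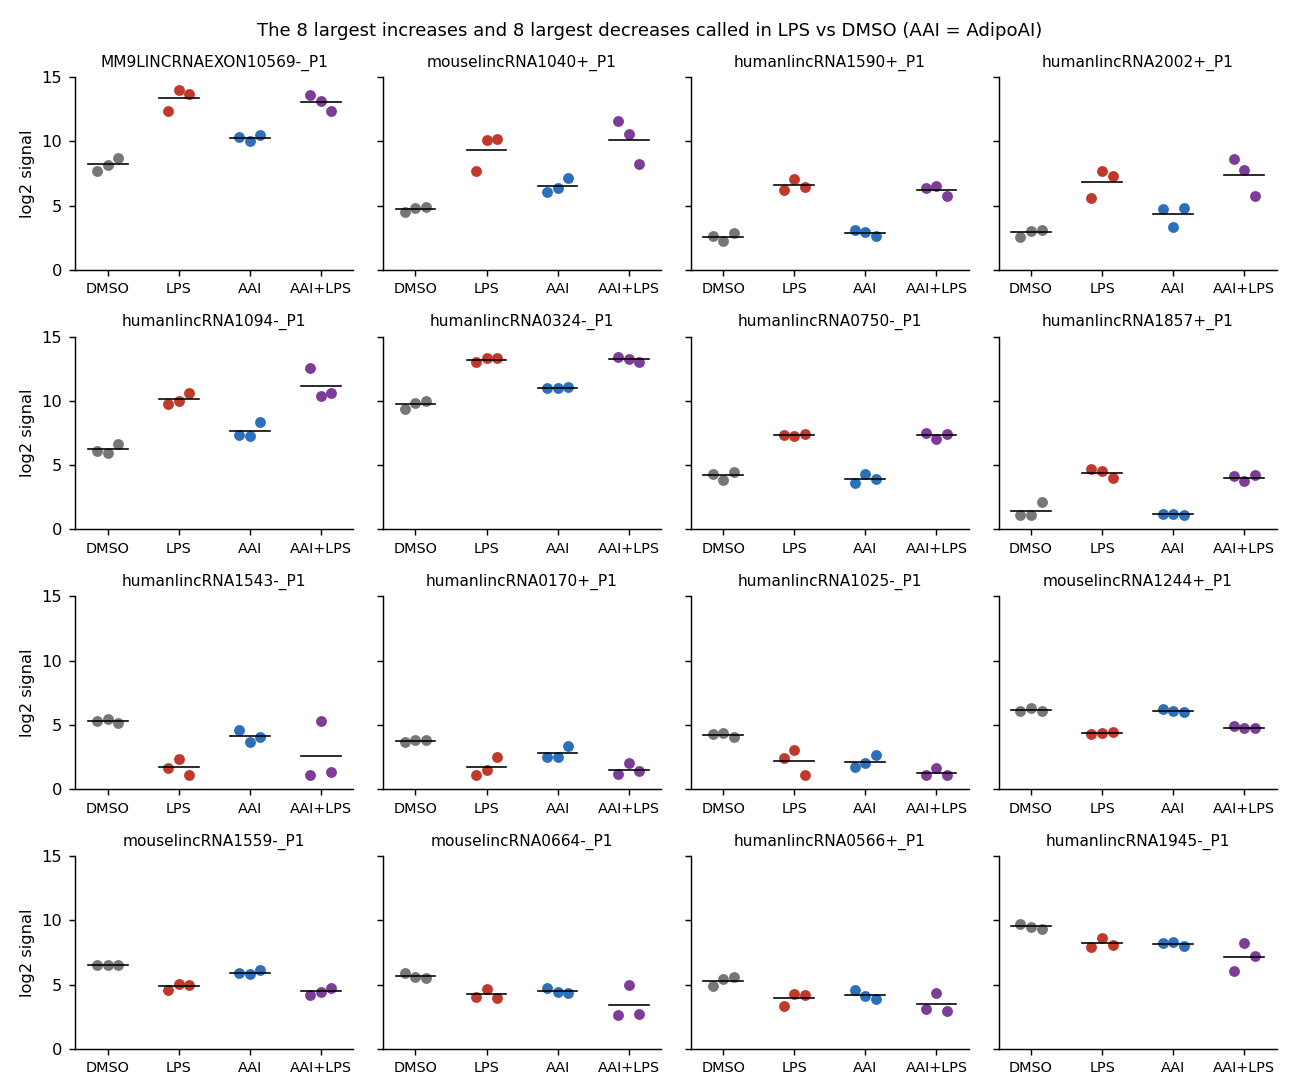
Log2 signal (vertical axis, quantile normalized) of the 8 largest increases and 8 largest decreases called in LPS against DMSO, 1 panel a probe, with points for arrays and bars for means of 3. Increases fill the upper 2 rows and decreases the lower 2, and in each panel the LPS points do not overlap the DMSO points.

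LPS raised many of the same probes after AdipoAI. In AdipoAI+LPS against AdipoAI, 67 of the 400 were called (16.8%, against 32.3% of all probes), 61 higher and 6 lower. Higher calls made up 15.2% of the lincRNA-named probes and 13.3% of all probes, and lower calls 1.5% and 19%. The median log2 fold change was 0.17, against -0.03 over all probes, and 35 of the 67 changed by 1 log2 unit or more. At an unadjusted p under 0.05 and 1.5 log2 units or more, 5.25% of the 400 passed in limma, where 6.92% of all probes did. The largest increases were in mouselincRNA1040+_P1 (3.63, SE 0.82, adjusted p = 0.00583), humanlincRNA1094-_P1 (3.51, SE 0.53, adjusted p = 0.000439) and humanlincRNA0750-_P1 (3.37, SE 0.22, adjusted p = 9.26e-07). humanlincRNA0750-_P1 read 3.59, 4.33 and 3.93 in AdipoAI and 7.48, 7.03 and 7.46 in AdipoAI+LPS, without overlap.

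Next came humanlincRNA1590+_P1, at least 6.60-fold higher (adjusted p = 4.3e-06), humanlincRNA2002+_P1 with a log2 fold change of 3.07 (SE 0.73, adjusted p = 0.00767), and humanlincRNA1857+_P1, at least 1.47-fold higher (adjusted p = 1.83e-05). These probes reached the filter only with arrays of groups given LPS, so their tests are not independent of it. The decreases were led by mouselincRNA1559-_P1 (-1.47, SE 0.16, adjusted p = 3.64e-05) and mouselincRNA1244+_P1 (-1.33, SE 0.11, adjusted p = 6.3e-06). humanlincRNA0846+_P1 (-0.85), humanlincRNA1728-_P1 (-0.78) and humanlincRNA2282-_P1 (-0.69) followed, with adjusted p of 0.00108, 0.00101 and 0.000881, and the sixth, humanlincRNA0170+_P1, was at background in both groups. Their arrays did not overlap between the 2 groups. humanlincRNA0846+_P1 reached the filter only with arrays of groups not given LPS, so its test is not independent of the filter. With scan as a block 33 probes were called (25 higher), where 20.1% of all probes were. mouselincRNA1040+_P1 (adjusted p = 0.11) and humanlincRNA2002+_P1 (adjusted p = 0.128) lost their calls. Among the 4 arrays of the second scan, where AdipoAI has 1 array, the median log2 fold change over the 400 was 0.18. Without AdipoAI+LPS 2 the split was 46 higher and 18 lower, against 11.5% and 16.3% of all probes.

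LPS against DMSO and AdipoAI+LPS against AdipoAI share no array, but both use the same estimate of spread for each probe. Their calls are set side by side here and are not independent. Of the 400 probes, 43 were called in both, 37 higher and 6 lower, all in the same direction. That is 45.3% of the 95 and 64.2% of the 67, where over all probes these shares were higher, at 67.4% and 80.2%. It is 10.8% of the 400, where 26% of all probes were called the same way in both. The 73 probes raised by LPS alone had a median log2 fold change of 1.00 there and 0.61 after AdipoAI, with 69 above 0. The 22 lowered by LPS had medians of -1.23 and -0.75, with 19 below 0. The 61 probes higher in AdipoAI+LPS against AdipoAI had medians of 1.04 there and 0.87 in LPS against DMSO. Of these, 56 were above 0 in LPS against DMSO. The 6 lower ones had medians of -1.06 and -1.48, all below 0. Each set was chosen by its calls in 1 of the 2 comparisons, so these medians do not measure a difference in response. Over the 400 probes the log2 fold changes of the 2 comparisons gave Pearson r = 0.74 and Spearman rho = 0.43, across probes that are not independent replicates, and 0.85 and 0.77 over all probes.

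**Figure D5:**
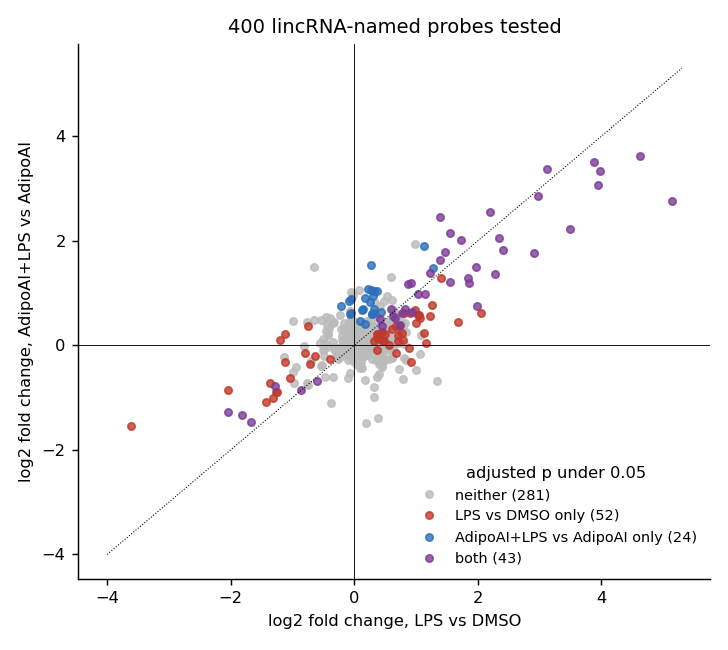
Log2 fold change of AdipoAI+LPS over AdipoAI (vertical axis) and of LPS over DMSO (horizontal axis) for the 400 lincRNA-named probes tested, coloured by the comparison in which they were called. The 43 called in both lie in the upper right and lower left, 52 were called in LPS against DMSO alone, 24 in the other alone and 281 in neither, and the dotted line marks equal change.

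AdipoAI by itself changed few lincRNA-named probes. Against DMSO 26 of 400 were called (6.5%, where 14.5% of all probes were), 15 higher and 11 lower, against 6.92% and 7.53% of all probes. The median log2 fold change was 0.06, and -0.03 over all probes. In none of the 26 did the groups overlap, and over the tested probes this held for 25.2% of the 400 and 35.6% of all probes. The count depended on single arrays, with 12 called without DMSO 2, 13 without AdipoAI 1 and 42 without AdipoAI+LPS 1. The last is an array outside the comparison that enters through the shared estimate of spread. The share of all probes called moved as well, to 7.84%, 8.75% and 16.2% in the same fits.

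MM9LINCRNAEXON10569-_P1 had the largest increase, 2.07 (SE 0.43, adjusted p = 0.0103) or 4.20-fold, from the array values given above. humanlincRNA0324-_P1 rose by 1.30 (SE 0.18, adjusted p = 0.000823). Both probes were thus called higher with LPS and higher with AdipoAI, in comparisons that share the DMSO arrays. The remaining increases among the 8 LPS risers were not called with AdipoAI. mouselincRNA1040+_P1 (1.77, SE 0.82, adjusted p = 0.177), humanlincRNA1094-_P1 (1.42, SE 0.53, adjusted p = 0.0991) and humanlincRNA2002+_P1 (at least 2.06-fold, adjusted p = 0.228, and well above background on 2 AdipoAI arrays) lay above DMSO on all 3 AdipoAI arrays. humanlincRNA0750-_P1 (-0.27, SE 0.22, adjusted p = 0.457) overlapped with DMSO, and humanlincRNA1590+_P1 and humanlincRNA1857+_P1 were at background in both groups.

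humanlincRNA0083-_P1 read 3.54, 3.52 and 4.04 in DMSO, 4.66, 4.71 and 5.47 in AdipoAI, 5.68, 6.33 and 6.33 in LPS and 7.51, 6.72 and 6.11 in AdipoAI+LPS. The AdipoAI arrays lay above DMSO and below LPS. The log2 fold change of AdipoAI over DMSO was 1.25 (SE 0.35, adjusted p = 0.0395), and the call was lost in 9 of the 12 fits without 1 array. mouselincRNA0901-_P1, at background in DMSO, was at least 1.68-fold higher (adjusted p = 0.0111). humanlincRNA1050+_P1 rose by 0.96 (SE 0.27, adjusted p = 0.0382), a call also lost in 9 of 12. The adjusted p was 0.127 for humanlincRNA0083-_P1 and 0.058 for humanlincRNA1050+_P1 with scan as a block.

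Among the decreases, humanlincRNA1025-_P1 fell from 4.27, 4.35 and 4.08 in DMSO to background in AdipoAI, at least 1.68-fold (adjusted p = 0.00779), and was at background in both groups given LPS as well. That probe passed the filter through its 3 DMSO arrays alone, so this test is not independent of the filter. humanlincRNA0194-_P1 fell from 4.34, 3.97 and 3.89 to background, at least 1.5-fold (adjusted p = 0.0104). It reached the filter only with arrays of groups without AdipoAI, and the same limit holds for its test. humanlincRNA1230-_P1 went from 5.23, 5.19 and 5.05 to 4, 4.31 and 4.62 (log2 fold change -0.85, SE 0.22, adjusted p = 0.0275). The AdipoAI arrays of each lay below all DMSO arrays. humanlincRNA0367+_P1 was at least 1.49-fold lower (adjusted p = 0.0406), mouselincRNA1559-_P1 changed by -0.58 (SE 0.16, adjusted p = 0.0321) and humanlincRNA1513-_P1 by -0.52 (SE 0.14, adjusted p = 0.0293). Without single arrays the calls of humanlincRNA0367+_P1, humanlincRNA1230-_P1, mouselincRNA1559-_P1 and humanlincRNA1513-_P1 were lost in 9, 5, 5 and 4 of 12 fits, and with scan as a block those of humanlincRNA0367+_P1 (adjusted p = 0.0511) and humanlincRNA1513-_P1 (adjusted p = 0.0856) were.

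On top of LPS, AdipoAI again changed few of these probes, and here the scans of the 2 groups differ. In AdipoAI+LPS against LPS 25 of 400 were called (6.25%, where 17.1% of all probes were), 18 higher and 7 lower, against 8.2% and 8.9% of all probes. The median log2 fold change was 0.01, and -0.02 over all probes. With scan as a block, where the 3 AdipoAI arrays alone tell the scans apart, 3 were called, and 3.09% of all probes were. The 3 were mouselincRNA0768+_P1 and mouselincRNA0394-_P1 of the 25, and mouselincRNA0753+_P1, which was not among the 25. Without LPS 2 there were 14 calls and without AdipoAI+LPS 1 there were 13, where 11.8% and 12.8% of all probes were called. Without AdipoAI+LPS 2 the split was 13 higher and 14 lower, against 6.46% and 6.61% of all probes.

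mouselincRNA1318+_P1 had the largest increase. It read 3.29, 3.93 and 3.70 in DMSO, 3.14, 2.83 and 2.69 in LPS, 4.23, 4.13 and 4.79 in AdipoAI and 4.99, 4.66 and 4.61 in AdipoAI+LPS. It was well above background on every array but those of LPS, and AdipoAI+LPS was at least 2.53-fold above LPS (adjusted p = 0.000264, or 0.0888 with scan as a block). humanlincRNA0409-_P1, well above background on the 3 AdipoAI+LPS arrays alone, was at least 2.21-fold higher (adjusted p = 0.0124, or 0.476 with scan as a block). Those 3 arrays alone brought it through the filter, so its test as higher there is not independent of the filter. humanlincRNA2163-_P1 rose from 7.93, 8.45 and 8.71 in LPS to 10.48, 9.53 and 9.34 (log2 fold change 1.42, SE 0.32, adjusted p = 0.0126, or 0.447 with scan as a block).

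Smaller increases called without the scan term were those of humanlincRNA0789+_P1 (1.30, SE 0.40, adjusted p = 0.0476), humanlincRNA2190+_P1 (at least 1.12-fold, adjusted p = 0.0288) and humanlincRNA0388-_P1 (at least 1.25-fold, adjusted p = 0.00433). Their adjusted p with scan as a block was 0.866, 0.625 and 0.533, and fits without 1 array lost the calls of the first and second in 9 and 5 of 12. humanlincRNA0388-_P1 also passed the filter through the 3 AdipoAI+LPS arrays alone, so its test is not independent of the filter either. humanlincRNA2190+_P1 would not have reached the filter without those arrays, and the same limit holds for its test. The + probe of number 0388 was detected on all 12 arrays. It read 4.28 to 4.34 in DMSO, 5.14 to 5.23 in LPS and 5.85 to 6.08 in AdipoAI+LPS. Number 0388 was the only one with both strands called in AdipoAI+LPS against LPS, and in AdipoAI+LPS against AdipoAI.

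Of the decreases, mouselincRNA0768+_P1 read 6.24, 5.95 and 6.06 in DMSO, 6.89, 6.97 and 7.06 in LPS, 6.01, 6.24 and 6.24 in AdipoAI and 6.19, 5.99 and 6.16 in AdipoAI+LPS. The LPS arrays stood above the 9 others, which overlapped. LPS over DMSO gave 0.89 (SE 0.12, adjusted p = 0.000152) and AdipoAI+LPS over LPS gave -0.86 (SE 0.12, adjusted p = 0.000868, or -0.98 with adjusted p = 0.0461 with scan as a block). mouselincRNA0394-_P1 read 4.74, 4.46 and 4.96 in LPS and 3.84, 4.12 and 4.11 in AdipoAI+LPS (log2 fold change -0.69, SE 0.20, adjusted p = 0.0368, or -1.36 with adjusted p = 0.0296 with scan as a block), a call lost in 6 of 12 fits without 1 array. It was not well above background on any AdipoAI array.

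Of the other 5 decreases, humanlincRNA0194-_P1 was at background on most arrays of both groups and is described below. The others were in humanlincRNA2266-_P1 (-1.40, SE 0.39, adjusted p = 0.0336), humanlincRNA2274-_P1 (-1.12, SE 0.35, adjusted p = 0.0492), humanlincRNA1098+_P1 (-0.82, SE 0.22, adjusted p = 0.029) and MM9LINCRNAEXON10888-_P1 (at least 1.32-fold lower, adjusted p = 0.0366). With scan as a block their adjusted p was 0.645, 0.732, 0.85 and 0.531. Fits without 1 array lost these calls in 5, 9, 4 and 4 of 12. MM9LINCRNAEXON10888-_P1 reached the filter only with arrays of groups without AdipoAI, so its test is not independent of the filter.

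AdipoAI against DMSO and AdipoAI+LPS against LPS share no array, but both use the same estimate of spread for each probe. Calls in both are therefore not independent. Called in both were 6 of the 400 (1.5%, where 6.86% of all probes were called the same way in both), 5 higher and 1 lower. That is 23.1% of the 26 and 24% of the 25, where over all probes these shares were higher, at 47.4% and 40.1%. humanlincRNA1894+_P1 read 4.50, 4.61 and 4.27 in DMSO, 5.29, 5.48 and 5.47 in AdipoAI, 4.81, 4.88 and 4.97 in LPS and 6.02, 5.84 and 5.86 in AdipoAI+LPS, with no overlap between any 2 groups. Its log2 fold changes were 0.95 (SE 0.12, adjusted p = 0.000537) without LPS and 1.02 (SE 0.12, adjusted p = 0.000259) with it, the latter at adjusted p = 0.0545 with scan as a block.

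humanlincRNA1396+_P1 rose by 0.79 (SE 0.09, adjusted p = 0.000384) and 0.40 (SE 0.09, adjusted p = 0.0149), and mouselincRNA0499+_P1 by 0.60 (SE 0.13, adjusted p = 0.0126) and 0.64 (SE 0.13, adjusted p = 0.00795). humanlincRNA2163-_P1 rose by 1.38 (SE 0.32, adjusted p = 0.0173) without LPS, beside the 1.42 given above, and that call was lost in 4 of 12 fits without 1 array and with scan as a block (adjusted p = 0.0621). mouselincRNA1318+_P1 rose by 0.74 (SE 0.22, adjusted p = 0.0461) without LPS, a call lost in 10 of 12 such fits and with scan as a block (adjusted p = 0.14). Those of mouselincRNA0499+_P1 without LPS and humanlincRNA1396+_P1 with it were lost in 1 of 12 each. The single decrease was humanlincRNA0194-_P1, well above background on 1 LPS array (2.83, 3.43 and 2.97) and on no AdipoAI+LPS array (1.15, 2.66 and 1.18), so no size is given for its fall on top of LPS (adjusted p = 0.0334, lost in 5 of 12 fits without 1 array). With scan as a block none of the 6 stayed under 0.05 in AdipoAI+LPS against LPS.

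Whether AdipoAI altered the response to LPS was tested as an interaction, the LPS change after AdipoAI minus the LPS change without it. Of the 400, 2 were called (0.5%, where 3.08% of all probes were), both negative. At an unadjusted p under 0.05 there were 39 (9.75%), where 14% of all probes passed. For mouselincRNA0768+_P1 the LPS change was 0.89 without AdipoAI and -0.05 after it, a difference of -0.93 (SE 0.17, adjusted p = 0.0134). For humanlincRNA0324-_P1 the changes were 3.49 and 2.23, a difference of -1.26 (SE 0.25, adjusted p = 0.0207), and the LPS and AdipoAI+LPS arrays themselves overlapped. The call of humanlincRNA0324-_P1 was lost without LPS 2, LPS 3, AdipoAI 1 or AdipoAI+LPS 3, with adjusted p of 0.0588, 0.0631, 0.0522 and 0.0529, and with scan as a block (-1.28, adjusted p = 0.0807).

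The study's methods name a P value below 0.05 and a change of 1.5 log2 units or more. With that P value taken as unadjusted, 27 lincRNA-named probes passed in LPS against DMSO (22 higher, 5 lower), where 9.79% of all probes did. In AdipoAI against DMSO 11 passed (3 higher, 8 lower, and 1.82% of all probes), in AdipoAI+LPS against LPS 6 (4 higher, 2 lower, and 2.43% of all probes), and in AdipoAI+LPS against AdipoAI 21 (all higher, and 6.92% of all probes). For the interaction 3 passed (1.78% of all probes).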

How the data were processed

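Per the labels and the file headers, total RNA from 12 RAW264.7 samples was hybridised to 1-colour Agilent arrays of 62939 spots, designed on the mouse build mm9, and read by the authors with Feature Extraction 11.0.1.1. The deposited scanner files hold background-subtracted processed intensity, median signal and background intensity and quality flags per spot. The authors also deposited a series table of log2 values, quantile normalized per the methods with a low-intensity filter; it matched 60598 probes here and served as an alternative.

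Here processed intensities of the 60915 non-control probes were put on the log2 scale (spots of one probe averaged). Quantile normalization ran over the 60694 probes left after outlier flags. Probes flagged as outliers (221, of which 9 lincRNA-named) were left out of signals and tests; no lincRNA-named probe was saturated. Probes well above background on at least 3 of 12 arrays (33692) were fitted with limma 3.58.1 in R 4.3.3, 1 model for the 4 groups, p-values adjusted by the Benjamini-Hochberg method. Detection used all 1836 probes. The members, lists and rules were chosen with earlier results of these data known. Named probes were those called and well above background on all 3 arrays of the higher group, by size of change: up to 8 in each direction for LPS against DMSO, 6 in each direction for the other comparisons, 6 for the interaction, and every probe called in both AdipoAI comparisons; the brightest probes and strand partners were added. Alternatives covered normalization, background correction, the filter, flags, fits of 2 groups, a trended and robust fit, replicate number or scan as a block, and leaving out each array. The fit was tested on simulated data. Replicate numbers did not pair the samples: in 18 pairs of same-numbered arrays the deviations from the group means correlated at -0.19 to 0.11. No gene, sequence or position could be matched to the lincRNA-named probes.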

Additional observations from a re-analysis of the deposited data

Results flagged for a closer look

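In mouselincRNA0768+_P1 the LPS effect differed between cells without and with AdipoAI by -0.93 log2 units (SE 0.17, adjusted p = 0.0134 for the interaction in limma), as LPS arrays stood at 6.89 to 7.06 and AdipoAI+LPS arrays at 5.99 to 6.19. It stayed under 0.05 in every alternative run, including scan as a block (-1.02, adjusted p = 0.0405).

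In humanlincRNA0324-_P1 the same difference was -1.26 log2 units (SE 0.25, adjusted p = 0.0207), with AdipoAI arrays at 11 to 11.06 against 9.37 to 10.00 in DMSO and overlapping levels after LPS. With scan as a block it was -1.28 with an adjusted p of 0.0807. The part of the scans in it was not tested otherwise.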

How the results depend on the processing

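Of 61 log2 fold changes of named probes, none changed sign in any alternative, and 26 stayed called in all of them: 13 of 16 in LPS against DMSO, 6 of 16 in AdipoAI against DMSO, 1 of 16 in AdipoAI+LPS against LPS, 5 of 11 in AdipoAI+LPS against AdipoAI and 1 of 2 for the interaction. Scan as a block lost 24 of the 61, of which 14 were in AdipoAI+LPS against LPS. The count of called lincRNA-named probes in that comparison fell from 25 to 3 with the block, while calls over all probes fell from 17.1% to 3.09%. That of AdipoAI+LPS against AdipoAI fell from 67 to 33, while calls over all probes fell from 32.3% to 20.1%. Within the second scan, which holds 1 AdipoAI array, the median log2 fold change over the 400 was 0.18. Within the first scan LPS against DMSO gave 95 calls (68 higher), 84 of them among the 95 over all arrays, and AdipoAI against DMSO gave 32. Normexp with an offset of 50 added to every signal shrank changes of dim probes, so that the 8 increases with LPS ran from 0.34 to 4.86. Restricting the test to probes well above background on all 12 arrays gave 63 calls for LPS against DMSO, 41 for AdipoAI+LPS against AdipoAI and 4 for the interaction. The interaction gave 7 calls (5 higher) from the series table and 6 without a filter, against 2 (none higher). The thresholds in the methods gave 27, 11, 6 and 21 in the 4 comparisons in the order LPS against DMSO, AdipoAI against DMSO, AdipoAI+LPS against LPS and AdipoAI+LPS against AdipoAI. Leaving out 1 array gave 64 to 97, 12 to 42, 13 to 27, 51 to 67 and, for the interaction, 1 to 5 calls, in the same order. For AdipoAI against DMSO the share of all probes called ran from 7.84% to 16.2% in these fits. The replicate block (numbers that do not pair the arrays) gave 89, 24, 20, 57 and 2 calls, within 1.5 times of 95, 26, 25, 67 and 2. Detection on all 3 arrays of a group was 14.2%, 14.8%, 13% and 15.5% in the groups DMSO, LPS, AdipoAI and AdipoAI+LPS, and on at least 2 it was 15.9% in AdipoAI. The gap of median signals was -2.61 in DMSO, -2.31 in AdipoAI and -2.49 in AdipoAI+LPS with scaling to the 75th percentile, and -1.87, -1.58, -1.80 and -1.52 in DMSO, LPS, AdipoAI and AdipoAI+LPS over tested probes alone. The cause of these moves was not tested. Signals near background limit what can be seen for the 1202 probes detected on no array.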
